A study of Mus musculus with 31 samples.

Results

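The immediate early transcription factors measured here are 10 genes, Fos, Fosb, Jun, Junb, Egr1, Ier2, Atf3, Klf4, Klf6 and Myc, taken by symbol from the 55487 genes of a kidney RNA-seq count table. All 10 passed the filter on low counts. Immediate early genes are transcribed within minutes of a stimulus, before any new protein is made, and their messenger RNAs are short-lived. Growth factors, injury and other stress reach them through kinases that act on SRF, ELK and CREB family proteins bound at their promoters. Their products are themselves transcription factors: FOS and JUN proteins pair to form AP-1, EGR1 is a zinc-finger factor, ATF3 is a stress-induced member of the ATF/CREB family, KLF4 and KLF6 are Krüppel-like factors, and MYC drives growth genes with its partner MAX. In the kidney they are known as early responders of tubule cells to injury.

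The kidneys came from 31 male mice on the B6 background, wild type (WT) or of the Nbl1 genotype labelled HET, sequenced as bulk tissue with 1 library per animal. From the age of 8 weeks the mice were given PBS, the buffer control, or cisplatin, a platinum drug that damages the kidney tubule, over 4 weeks. Kidneys were taken 3 days after treatment, at a stated 11 weeks of age, a figure that the treatment schedule exceeds. There were 8 WT PBS, 7 HET PBS, 8 WT cisplatin and 8 HET cisplatin animals. The sources used here do not give the kind of Nbl1 allele, the cisplatin dose or the time and order of tissue collection. In bulk tissue, fewer cells of a type and less RNA per cell cannot be told apart.

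Library totals, in units of 1e+06 counts, were 29.8 to 37.3 (WT PBS), 29.2 to 36.7 (HET PBS), 24.7 to 28.9 (WT cisplatin) and 26.9 to 31.9 (HET cisplatin). Levels are given as CPM, counts per 1e+06. The targeted gene Nbl1 lay at 3.71 to 7.90 CPM (WT PBS), 0.106 to 4.20 CPM (HET PBS), 10.7 to 26.2 CPM (WT cisplatin) and 0.861 to 13.9 CPM (HET cisplatin). The libraries labelled HET PBS 1 (0.106 CPM), HET PBS 6 (0.434), HET cisplatin 3 (1.08) and HET cisplatin 4 (0.861) held far less Nbl1 than the rest of their groups, and the library labelled WT PBS 6 (3.71) lay among the HET PBS values. The cisplatin groups also met, with WT cisplatin 6 at 10.7 CPM and HET cisplatin 7 and 8 at 10.8 and 13.9 CPM, and these 3 are not among the 5 libraries just named. Results are given with the labels kept, and without those 5 where that changes a call. The 6 proximal tubule markers summed to 13483 to 16299 CPM in the PBS libraries and to 1047 to 6038 CPM under cisplatin, and none was at 0. The highest cisplatin sums of that list were those of WT cisplatin 6 (6038) and HET cisplatin 6 (5593). No pair of libraries within a group held identical values.

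Promoter sequences are shown for 5 genes that rose and fell together between libraries or rose under cisplatin, so that the letters next to their starts can be read. Each run is the 250 bases before the RefSeq start of the gene (GRCm38.p6), 5′ to 3′ on the strand of the gene. RefSeq windows were matched for 7 of the 10 genes. The motifs searched, on both strands, were TGACGTCA (the CRE, the site of CREB and ATF proteins), its core TGACG, the variant TGACATCA, TGANTCA (the AP-1 element), the SRF CArG box, GCGNGGGCG (the EGR element), CACGTG (the E-box of MYC and MAX) and TATAAA (the TATA box). The core lies within the full CRE, and the variant was added after the windows had been read. Capitals mark TGACG or its complement CGTCA, TGACATCA, GCGNGGGCG and TATAAA.
Fos: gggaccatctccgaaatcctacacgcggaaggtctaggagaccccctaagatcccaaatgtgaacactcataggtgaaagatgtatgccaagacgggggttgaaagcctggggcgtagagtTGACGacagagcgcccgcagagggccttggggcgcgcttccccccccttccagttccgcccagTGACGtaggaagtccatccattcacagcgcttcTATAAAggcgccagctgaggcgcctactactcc
Fosb: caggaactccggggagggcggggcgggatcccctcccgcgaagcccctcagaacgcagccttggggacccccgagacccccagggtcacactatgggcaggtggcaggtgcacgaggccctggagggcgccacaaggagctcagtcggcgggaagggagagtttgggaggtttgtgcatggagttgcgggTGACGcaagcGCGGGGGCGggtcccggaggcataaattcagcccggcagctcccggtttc
Jun: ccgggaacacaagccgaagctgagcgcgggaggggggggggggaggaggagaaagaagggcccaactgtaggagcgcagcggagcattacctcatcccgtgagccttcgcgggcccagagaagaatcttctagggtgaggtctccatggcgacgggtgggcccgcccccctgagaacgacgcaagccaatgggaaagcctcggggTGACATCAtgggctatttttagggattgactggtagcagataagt
Atf3: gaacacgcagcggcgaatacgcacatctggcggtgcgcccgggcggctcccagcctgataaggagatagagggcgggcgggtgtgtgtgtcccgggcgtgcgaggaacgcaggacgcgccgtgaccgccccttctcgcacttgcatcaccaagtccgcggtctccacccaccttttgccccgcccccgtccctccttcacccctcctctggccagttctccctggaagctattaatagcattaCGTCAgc
Klf6: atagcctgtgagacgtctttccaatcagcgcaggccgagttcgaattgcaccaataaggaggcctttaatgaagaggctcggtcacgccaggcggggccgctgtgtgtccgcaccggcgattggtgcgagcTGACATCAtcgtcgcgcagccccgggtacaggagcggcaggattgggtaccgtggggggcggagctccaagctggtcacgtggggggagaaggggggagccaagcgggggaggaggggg
The windows are, in the same order, chr12:85473640-85473889 (forward strand), chr7:19310046-19310295 (reverse strand), chr4:95052223-95052472 (reverse strand), chr1:191183334-191183583 (reverse strand) and chr13:5861239-5861488 (forward strand).

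Fos held the core TGACG with its first base 129 and 66 bases upstream of the start, and a TATA box 33 bases upstream. In Fosb the core began 60 bases upstream, with an EGR element 50 bases upstream. Jun and Klf6 shared the variant TGACATCA, 45 and 119 bases upstream, and Klf6 also had an E-box 43 bases upstream. Atf3 had the core on the other strand 7 bases upstream, in a window that lies inside the GENCODE span of the gene. Of the 2 matched genes not printed, Junb held the core 106 bases upstream, and Klf4 held the core and an E-box 232 and 182 bases upstream and EGR elements 211 and 194 bases upstream. None of the 7 windows held a full CRE, an AP-1 element or a CArG box, which says only that these letters are not in these windows. Of 32851 windows of this length, 17.8% held TGACG, 2.93% TGACATCA, 1.55% TGACGTCA, 6.75% TGANTCA, 1.47% a CArG box, 4.70% GCGNGGGCG, 6.02% CACGTG and 12.4% TATAAA. A match is a description of letters and not of a bound site.

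The 10 genes varied between animals of the same group far more than most genes did, and most widely among the PBS controls. Fos encodes an AP-1 subunit (chromosome 12, 85473890 to 85477273, forward strand, GRCm38). It ran from 1.40 CPM in WT PBS 1 to 212 CPM in WT PBS 4. The libraries between them were at 1.66, 1.73, 2.25, 18.5, 81.6 and 125 CPM. In HET PBS the values were 1.18, 2.31, 2.50, 5.69, 11.3, 56.1 and 289 CPM. The highest library was 151 times the lowest in WT PBS and 245 times in HET PBS. WT cisplatin ran from 2.44 to 255 CPM with a median of 45.3, and HET cisplatin from 4.36 to 201 CPM with a median of 15.5. All 4 groups overlapped, and in each the highest library was at least 46.1 times the lowest.

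Fosb, a second FOS-family subunit (chromosome 7, 19302696 to 19310051, reverse strand), had the widest spread of the 10 in PBS. Its lowest, median and highest values were 0.316, 9.62 and 158 CPM in WT PBS, 0.118, 1.28 and 182 CPM in HET PBS, 1.42, 30.0 and 124 CPM in WT cisplatin and 0.865, 21.8 and 71.8 CPM in HET cisplatin. HET PBS 7, the lowest library, rested on 3 reads, so its ratio to the highest carries a large counting error. By the SD of log2 CPM, Fosb ranked 4 of 19268 tested genes in WT PBS and 2 of 19268 in HET PBS, Fos 8 and 11, Atf3 12 and 12, and Egr1 14 and 10. The median SD of the 10 genes was 1.73 in WT PBS, 1.59 in HET PBS, 0.969 in WT cisplatin and 0.857 in HET cisplatin, against 0.202, 0.203, 0.233 and 0.262 for all tested genes. The 5% of tested genes with the largest SD held 10 of the 10 genes in WT PBS, 8 in HET PBS, 6 in WT cisplatin and 5 in HET cisplatin.

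The JUN subunits varied less. Jun (chromosome 4, 95049034 to 95052222, reverse strand) had lowest, median and highest values of 25.2, 63.6 and 310 CPM in WT PBS, 37.9, 76.3 and 489 CPM in HET PBS, 62.5, 123 and 265 CPM in WT cisplatin and 53.3, 104 and 197 CPM in HET cisplatin. Junb (chromosome 8, 84974484 to 84978718, reverse strand) ran from 9.49 to 163 CPM in WT PBS, 10.6 to 188 CPM in HET PBS, 21.1 to 131 CPM in WT cisplatin and 17.8 to 123 CPM in HET cisplatin. The cisplatin ranges of Jun and Junb lay within the PBS ranges in both genotypes. Junb overlaps Prdx2 on the opposite strand, a gene at 69.6 to 127 CPM, and Jun overlaps the antisense gene Junos (0.208 to 1.29 CPM). The sources used here do not say whether the counting used strand, so reads of these pairs may be mixed and the Junb values are uncertain.

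Egr1 (chromosome 18, 34859823 to 34864984, forward strand) and Ier2, a small nuclear protein of the early response (chromosome 8, 84661331 to 84662852, reverse strand), followed Fos. Egr1 had lowest, median and highest values of 9.29, 39.0 and 569 CPM in WT PBS, 4.13, 68.5 and 695 CPM in HET PBS, 21.1, 241 and 404 CPM in WT cisplatin and 22.7, 96.2 and 274 CPM in HET cisplatin. For Ier2 they were 5.69, 11.4 and 96.0 CPM in WT PBS, 6.10, 14.2 and 122 CPM in HET PBS, 8.48, 37.8 and 56.7 CPM in WT cisplatin and 10.4, 21.6 and 46.9 CPM in HET cisplatin. In both genes the highest PBS library was above every cisplatin library, and the ranges overlapped throughout.

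Atf3, which restrains as well as activates stress genes (chromosome 1, 191170296 to 191218039, reverse strand), stood between the sets. It was at 0.526 to 108 CPM in WT PBS with a median of 7.02, at 0.669 to 79.8 CPM in HET PBS with a median of 1.60, at 5.06 to 160 CPM in WT cisplatin with a median of 40.5, and at 4.68 to 91.1 CPM in HET cisplatin with a median of 33.8. All 8 HET cisplatin libraries lay above the HET PBS median and 7 of the 8 WT cisplatin libraries above the WT PBS median. The upper PBS libraries overlapped the cisplatin ranges in both genotypes.

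Klf4 (chromosome 4, 55527143 to 55532466, reverse strand) and Klf6 (chromosome 13, 5861482 to 5870394, forward strand) moved with treatment more clearly. Klf4 had lowest, median and highest values of 6.35, 10.4 and 30.8 CPM in WT PBS and 17.5, 38.5 and 52.3 CPM in WT cisplatin, with 7 of 8 cisplatin libraries above the highest PBS library. In HET it went from 7.81, 13.1 and 35.9 CPM to 17.8, 30.6 and 47.5 CPM, with 3 of 8 above the highest PBS library. Klf6 went from 30.5, 62.5 and 239 CPM to 133, 277 and 415 CPM in WT, with 6 of 8 above, and from 47.3, 84.4 and 191 CPM to 104, 247 and 301 CPM in HET, with 5 of 8 above. Myc (chromosome 15, 61985391 to 61990374, forward strand) had 4.63, 11.4 and 47.6 CPM in WT PBS, 6.31, 14.2 and 24.2 CPM in HET PBS, 18.4, 28.7 and 50.9 CPM in WT cisplatin and 14.0, 21.1 and 43.8 CPM in HET cisplatin, and its groups overlapped. The groups overlapped for all 10 genes in both genotypes, while 31.8% of tested genes in WT and 26% in HET had cisplatin and PBS groups that did not.

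**Figure D1:**
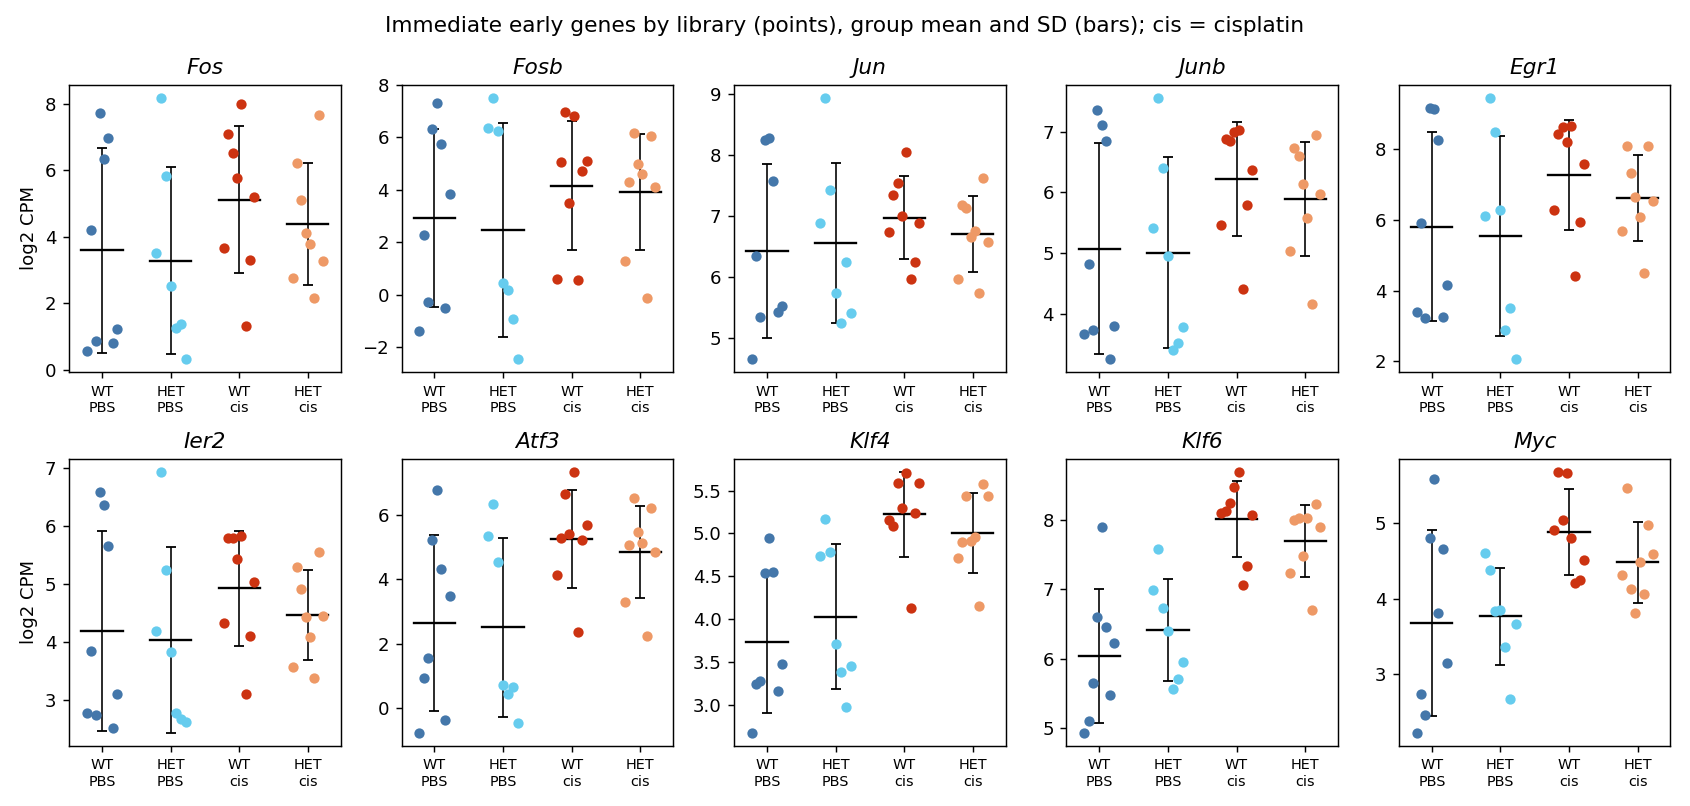
Log2 CPM of each gene (panels) in each library (points) by group, with the group mean (line) and SD (bar). Fos, Fosb, Egr1 and Atf3 fill a wide range in every group, and Klf4 and Klf6 sit higher under cisplatin.

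Levels between genes were compared per length, as TPM, which scales counts by gene length and library. In WT PBS the order of the median TPM was Jun (13.3), Klf6 (11.5), Junb (8.37), Egr1 (7.67), Ier2 (5.48), Fos (4.245), Myc (3.395), Atf3 (2.895), Klf4 (2.38) and Fosb (2.06). Under cisplatin in WT it was Klf6 (69.19), Egr1 (62.45), Junb (49.6), Jun (33.35), Ier2 (23.4), Fos (20.17), Atf3 (18.69), Myc (12.18), Klf4 (11.65) and Fosb (8.03). In HET, Klf6 led both groups at 15.03 TPM under PBS and 58.39 TPM under cisplatin, and Fosb was last at 0.32 and 6.155 TPM. The range of each gene over libraries overlapped that of its neighbour in each of these orders, so the order of neighbours is not resolved.

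The high PBS values came from the same animals. The libraries labelled WT PBS 4, 5 and 6 and HET PBS 1, 2 and 3 belong to the 6 PBS animals with the lowest animal numbers in the labels, and the other 9 PBS libraries to animals with higher numbers. Fosb was at 53.2 to 182 CPM in those 6 libraries and at 0.118 to 14.4 CPM in the other 9. Atf3 was at 19.6 to 108 CPM against 0.526 to 11.1 CPM, and Klf4 at 23.2 to 35.9 CPM against 6.35 to 13.1 CPM. Jun, Junb, Ier2 and Klf6 also had ranges that did not meet, so that 7 of the 10 genes were higher in all 6, against 0.727% of tested genes. Fos (11.3 to 289 against 1.18 to 18.5 CPM), Egr1 (68.5 to 695 against 4.13 to 77.7 CPM) and Myc (13.9 to 47.6 against 4.63 to 25.0 CPM) overlapped. This division was drawn after the values were seen and is a description with no test.

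The sum of the 5 neutrophil markers among PBS libraries was 4.95 to 19.4 CPM in the 6 animals with the lowest numbers. It was 1.11 to 8.85 CPM in the next 6 and 0.873 to 1.23 CPM in the 3 with the highest numbers. The first 2 sets overlapped, as HET PBS 2 was at 6.70 CPM and WT PBS 8 at 8.85 CPM. Single markers were not compared between the sets. Both genotypes are in the lowest-numbered set, and none of the 5 markers was at 0 in every library of a group. Injured tubule markers summed to 19.8 to 40.2 CPM, 16.8 to 29.9 CPM and 16.0 to 18.7 CPM in the 3 sets, and macrophage markers to 70.2 to 85.8 CPM, 66.8 to 79.0 CPM and 69.8 to 74.9 CPM. The part of these cells in the values of the 10 genes was not tested. The labels do not say what the animal numbers stand for. Under cisplatin, WT cisplatin 6 was the lowest of its group in 10 of 10 genes and HET cisplatin 6 in 9 of 10, and these are the libraries with the most proximal tubule marker RNA of their groups. HET cisplatin 6 also had the lowest injured tubule sum of its group (152 CPM against 433 to 1008 CPM) and the lowest macrophage sum (32.9 against 69.7 to 98.4 CPM). WT cisplatin 6 did not, with an injured tubule sum of 713 CPM in a group at 596 to 959 CPM.

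**Figure D2:**
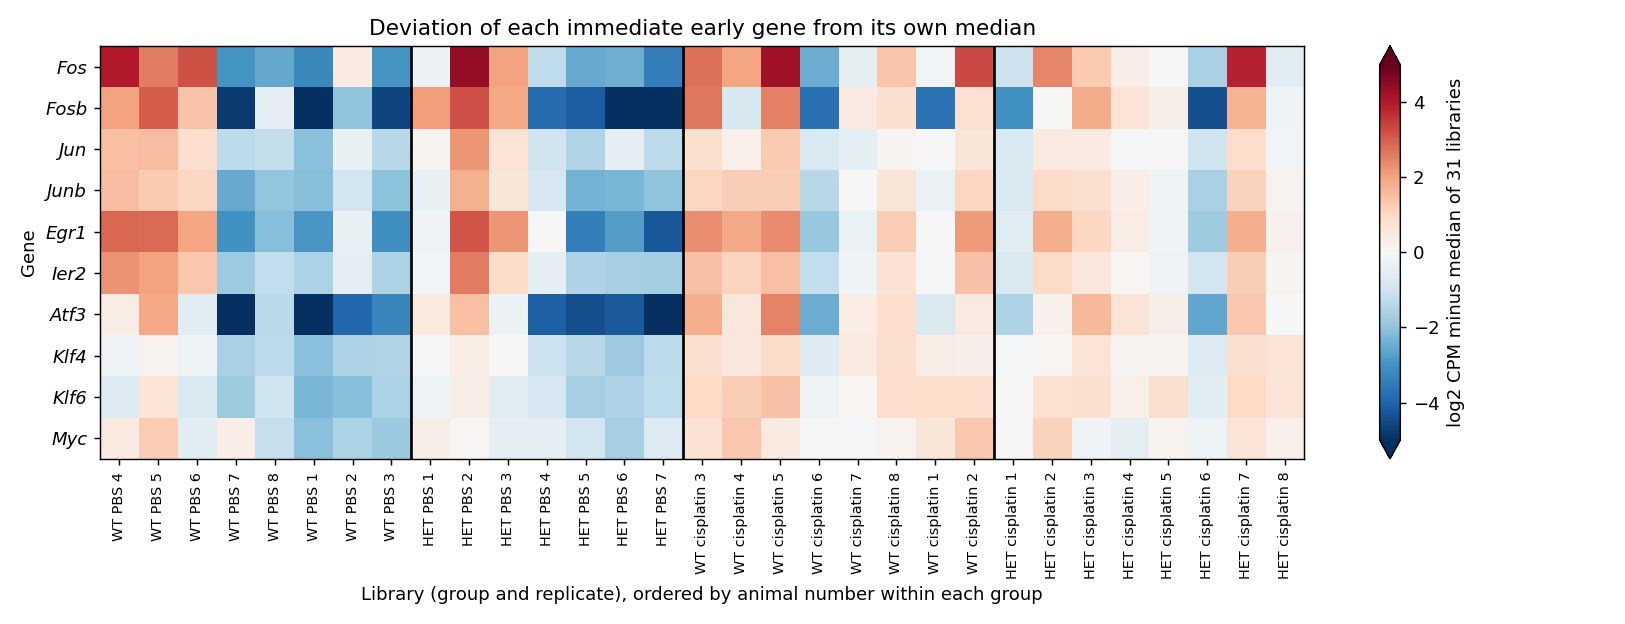
Log2 CPM of each gene (rows) minus its median over 31 libraries (columns, ordered by animal number within each group, black lines between groups). Red columns in the PBS groups are WT PBS 4 to 6 and HET PBS 2 and 3, with HET PBS 1 high in Fosb, and the blue columns of WT cisplatin 6 and HET cisplatin 6 stand out under cisplatin.

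Cisplatin was compared with PBS by edgeR's quasi-likelihood test on the counts. In WT kidneys Klf6, Klf4 and Myc rose, 3 of the 10 genes, where 33.6% of all tested genes rose and 63.2% changed in either direction. Klf6 rose from 82.2 ± 67.9 to 274 ± 92.2 CPM (mean ± SD, n = 8 and 8), or by 1.74 ± 0.35 on the log2 scale (estimate ± SE, adjusted p = 7.16e-05). Klf4 rose by 1.34 ± 0.32 (adjusted p = 0.000451). Myc rose by 0.85 ± 0.37 with an adjusted p of 0.0490, at the edge of the threshold of 0.05, and 21 of the 31 fits that left out 1 library lost it, with a highest adjusted p of 0.108. It was also lost without the 5 libraries that go against their Nbl1 label (adjusted p = 0.0792). In HET kidneys Klf6 (1.19 ± 0.36, adjusted p = 0.00528) and Klf4 (0.83 ± 0.33, adjusted p = 0.0288) rose, 2 of the 10, where 31% of all tested genes rose and 59% changed. Klf4 in HET was lost when any of the libraries labelled HET PBS 4 to 7 or HET cisplatin 3, 7 or 8 was left out (adjusted p = 0.0509 to 0.0702), and without the same 5 libraries (adjusted p = 0.107). Myc in HET was at 0.69 ± 0.39 (adjusted p = 0.129). DESeq2 called Klf6 and Klf4 in both genotypes, where 32.7% of all tested genes in WT and 30.6% in HET rose, and missed Myc in WT (adjusted p = 0.0557).

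Markers of several cell types moved in the same comparison. The 6 proximal tubule markers fell in both genotypes, 6 of 6, with a median log2 fold change of -2.42 in WT and -1.95 in HET. All 5 injured tubule markers rose (medians 7.22 and 6.05), from sums of 16.0 to 40.2 CPM in the PBS libraries to 152 to 1008 CPM under cisplatin. Of 5 fibroblast and mural cell markers 4 rose in each genotype (medians 0.50 and 0.39), of 5 macrophage markers 4 rose in WT and 3 in HET with 1 falling in each (medians 1.31 and 0.78), and the 5 endothelial markers fell in both (medians -0.54 and -0.41). Of 4 tested neutrophil markers 0 were called in WT and 4 fell in HET (medians -1.38 and -1.74). Of 2 tested lymphocyte markers 2 fell in WT and 1 in HET (medians -2.29 and -1.43). Of 3 thick ascending limb markers 2 fell and 1 rose in each genotype (medians -0.49 and -0.39). The part of any of these cell types in the changes of Klf6, Klf4 and Myc was not tested.

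The AP-1, Egr1, Ier2 and Atf3 genes did not pass the edgeR test. Fos differed by 0.43 ± 1.08 in WT (adjusted p = 0.747) and by -0.22 ± 1.12 in HET (adjusted p = 0.878). The other values were 0.14 in WT and -0.75 in HET for Fosb, 0.09 and -0.32 for Jun, 0.50 and 0.35 for Junb, 0.21 and -0.43 for Egr1, 0.09 and -0.29 for Ier2, and 1.32 and 0.91 for Atf3. With standard errors from 0.51 to 1.13, an interval of 2 SE on each side includes both a fall and a rise for each. The median over the 10 genes was 0.46 in WT and 0.07 in HET, beside 0.06 for all genes in both. Scaling by library totals moved the median of all genes to 0.45 in WT and 0.46 in HET and the share of all tested genes that rose to 61.4% and 62.2%, and under it Myc passed in HET (1.10, adjusted p = 0.0128), while Fos, Jun and Ier2 turned positive in HET without passing.

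Means and medians gave different ratios for these genes. In WT the ratio of cisplatin to PBS in CPM was 1.35 by means and 4.37 by medians for Fos, and 1.16 and 6.18 for Egr1. In HET it was 0.596 and 17.0 for Fosb, and 1.88 and 21.2 for Atf3. Models on a log scale weigh high libraries less, and limma voom gave a higher fold change than edgeR for 10 of the 10 genes in WT and 9 of the 10 in HET. Limma voom with quality weights gave 3.09 ± 0.95 for Atf3 in WT (adjusted p = 0.00495) and 2.62 ± 0.96 in HET (adjusted p = 0.0191), and 1.38 ± 0.57 for Junb in WT (adjusted p = 0.0317). With voom 5 of the 10 genes rose in WT and 3 in HET, where 36.2% and 32.2% of all tested genes rose. Limma on log2(TPM + 1) called 5 in WT and 4 in HET, where 62.6% and 63.9% of all tested genes rose and the median of all genes was 0.28 and 0.29. Fos reached 2.04 ± 1.10 in WT by voom (adjusted p = 0.102) and was called in neither genotype by edgeR, voom or the TPM model.

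**Figure D3:**
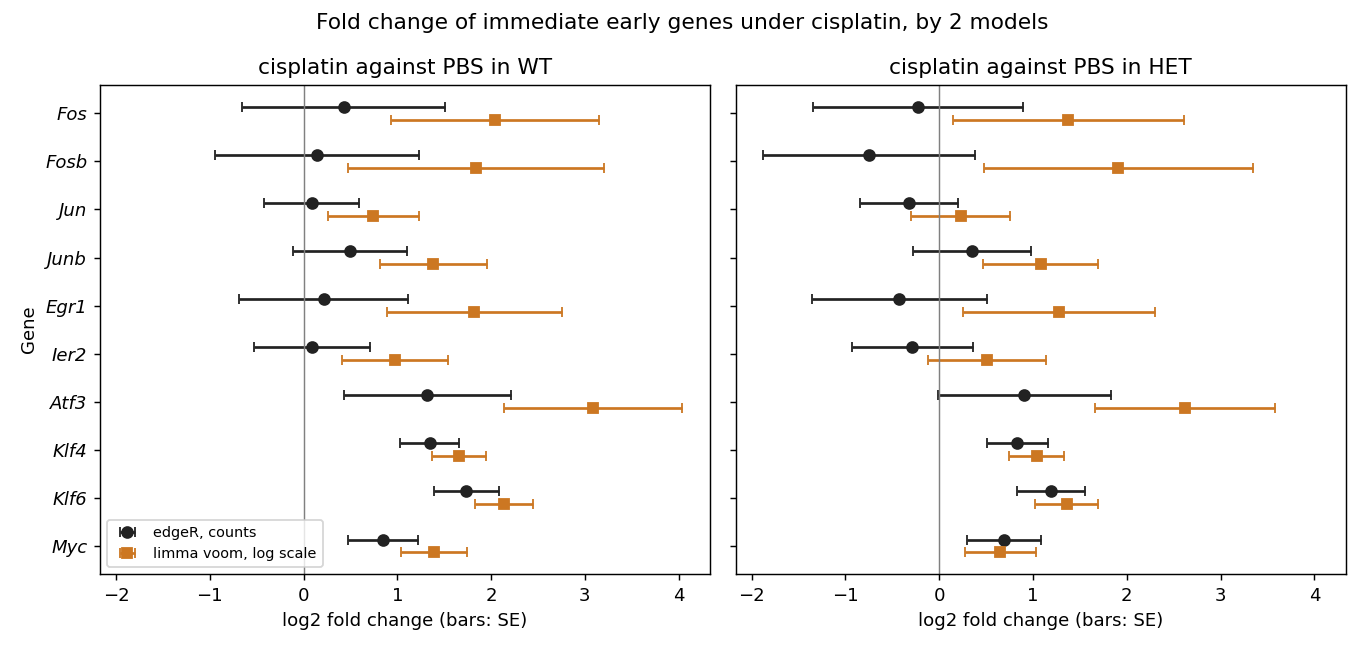
Log2 fold change of cisplatin against PBS (x axis, points with SE bars) for each gene, in WT (left) and HET (right), by edgeR on counts (circles) and limma voom (squares). Klf4 and Klf6 lie above 0 by both models, while Fos, Fosb, Jun, Egr1 and Ier2 in HET lie below 0 by edgeR and above 0 by voom.

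The HET comparison turned on which PBS animals were in it. Every HET cisplatin animal (8 of 8) has a number in the 600 series, as do 4 of the 7 HET PBS, 4 of the 8 WT PBS and 6 of the 8 WT cisplatin animals. Within that series, edgeR called 8 of the 10 genes higher under cisplatin in HET, where 26.3% of all tested genes rose. Atf3 was at 4.95 ± 1.15 (adjusted p = 0.00110), Fosb at 5.27 ± 1.49 (adjusted p = 0.00543), Fos at 3.94 ± 1.40 (adjusted p = 0.0233), Junb at 2.06, Ier2 at 1.57, Klf4 at 1.67, Klf6 at 1.83 and Myc at 1.12. Egr1 (2.37) and Jun (1.10) did not pass. The 4 HET PBS animals of that series are the 4 low ones, with Fos at 1.18 to 5.69 CPM. In WT the same series holds 2 high PBS libraries and gave 2 called genes, Klf6 at 1.29 ± 0.39 and Klf4 at 1.12 ± 0.33, where 26.5% of all tested genes rose, with Fos at 0.51 and Myc at 0.25, neither called. With the number series as a covariate, 2 genes were called in WT and 2 in HET, where 33.4% and 30.2% of all tested genes rose. This covariate sets the 600 series against all other numbers. In WT PBS, high and low libraries lie on both its sides, so there it does not follow the division into high and low PBS animals. In HET PBS it does, with HET PBS 1 to 3 outside the series and HET PBS 4 to 7 inside. All 8 HET cisplatin animals lie inside too, so in HET the covariate and that division cannot be told apart.

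Genotype gave no call. Between HET and WT under PBS, 0 of the 10 genes passed edgeR's test (0% of all tested genes), and 0 had an unadjusted p under 0.05, with DESeq2 and both log-scale models giving 0 and 0 as well. The log2 differences lay between -0.26 (Myc) and 0.33 (Fosb), with standard errors from 0.33 to 1.12. Under cisplatin 0 of the 10 passed (0.00519% of all tested genes), at log2 differences from -0.78 (Egr1) to -0.21 (Klf4) with standard errors from 0.31 to 1.09, and 0 had an unadjusted p under 0.05 by any of the 4 tools. Egr1 was at 223 ± 156 CPM in WT cisplatin and 130 ± 97.3 CPM in HET cisplatin (mean ± SD, n = 8 and 8; adjusted p = 0.933). All 10 edgeR estimates under cisplatin were negative, while voom had 1 of 10 positive, and the genes are not independent of each other. The interaction, the difference between the responses of HET and WT, was called for 0 of the 10 (0% of all tested genes), with estimates from -0.89 (Fosb) to -0.14 (Junb) and standard errors from 0.45 to 1.57, and 0 had an unadjusted p under 0.05 by any of the 4 tools. Within the animals of the 600 series the interaction estimates were positive for all 10, from 0.54 to 5.40, with 0 called and 2 at an unadjusted p under 0.05, beside 4.01% of all tested genes. There, HET was below WT under PBS in all 10 genes, by log2 differences from -6.23 to -0.81, with 0 called and 9 at an unadjusted p under 0.05, beside 4.94% of all tested genes. The WT PBS animals of that series include 2 of the high libraries, WT PBS 5 and 6, while its 4 HET PBS animals are the low ones.

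The spread between libraries was narrower under cisplatin for all 10 genes in both genotypes, but the difference was not resolved. The mean absolute deviation of log2 CPM from the group median fell from 2.30 to 1.01 for Atf3 in WT (two-sided permutation test, p = 0.0384). For Myc in WT it fell from 1.03 to 0.437 (permutation test, p = 0.0204). For Egr1 in HET the values were 2.25 and 0.924 (permutation test, p = 0.0549). None of the 10 genes passed after Benjamini-Hochberg adjustment over all tested genes, the lowest adjusted p of the permutation tests being 0.418 in WT and 0.764 in HET. An unadjusted p under 0.05 was reached by 2 of 10 genes in WT and 0 of 10 in HET, against 9.33% and 6.39% of all tested genes. Among all genes the spread was narrower under cisplatin in 45.7% in WT and 36.1% in HET.

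Within a group, the genes rose and fell together with Fos. WT PBS splits into 4 libraries at 2.25 CPM of Fos or less and 4 at 18.5 CPM or more. In HET PBS Fosb and Atf3 split into high and low libraries too. Permutation p-values of the PBS groups were computed among the 36 relations but are not given. With libraries split in this way, the r of the PBS groups is a description. In HET PBS the Pearson r of log2 CPM with Fos was 0.991 for Ier2, 0.972 for Junb, 0.956 for Jun and Egr1, 0.895 to 0.904 for Fosb, Atf3, Klf4 and Klf6, and 0.602 for Myc. Without HET PBS 2 and 3, the libraries farthest from the median of Fos, that of Jun was 0.752. In the cisplatin groups Ier2 was closest to Fos, with an r of 0.980 in WT (rho 0.976) and 0.953 in HET (rho 0.929; exact permutation tests adjusted over the 36 relations computed, p at most 0.00223 for r and 0.00909 for rho). Jun, Junb and Egr1 had r from 0.886 to 0.973 there. Without the 2 libraries farthest from the median of Fos, the r of Ier2, Jun, Junb and Egr1 lay between 0.912 and 0.990. Fosb, Atf3 and Klf6 passed for r in both cisplatin groups, at 0.754 to 0.883, though rho of Fosb in WT cisplatin (0.738) missed the threshold, and without WT cisplatin 5 and 6 their r in that group was 0.579 to 0.652. The r of Klf4 in WT cisplatin was 0.770 and fell to 0.180 without WT cisplatin 5 and 6, so it rests on those libraries, and in HET cisplatin it did not pass (0.651). Myc, at r of 0.644 and 0.638, passed in neither.

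Fosb and Atf3, a pair chosen after the values were seen, had an r with each other of 0.917 in WT cisplatin (rho 0.905) and 0.996 in HET cisplatin (rho 1). Without the 2 libraries farthest from the median of Fosb it was 0.853 and 0.991. These are descriptions, with no p given because the pair was chosen from the values. The difference from the correlations with Fos was not tested.

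Fos and Fosb, 2 genes of the FOS family, did not keep a fixed ratio. In TPM, Fosb was below Fos in 25 of 31 libraries and above it in 6. The library labelled HET PBS 1 held 3.81 TPM of Fos and 16.7 TPM of Fosb, a ratio of 4.37, and WT PBS 8 held 0.88 and 3.26 TPM, a ratio of 3.70. The median ratio of Fosb to Fos was 0.184 in WT PBS, 0.163 in HET PBS, 0.289 in WT cisplatin and 0.568 in HET cisplatin, and the ranges of the 4 groups overlapped, the lowest ratio being 0.0523 and the highest 4.37.

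**Figure D4:**
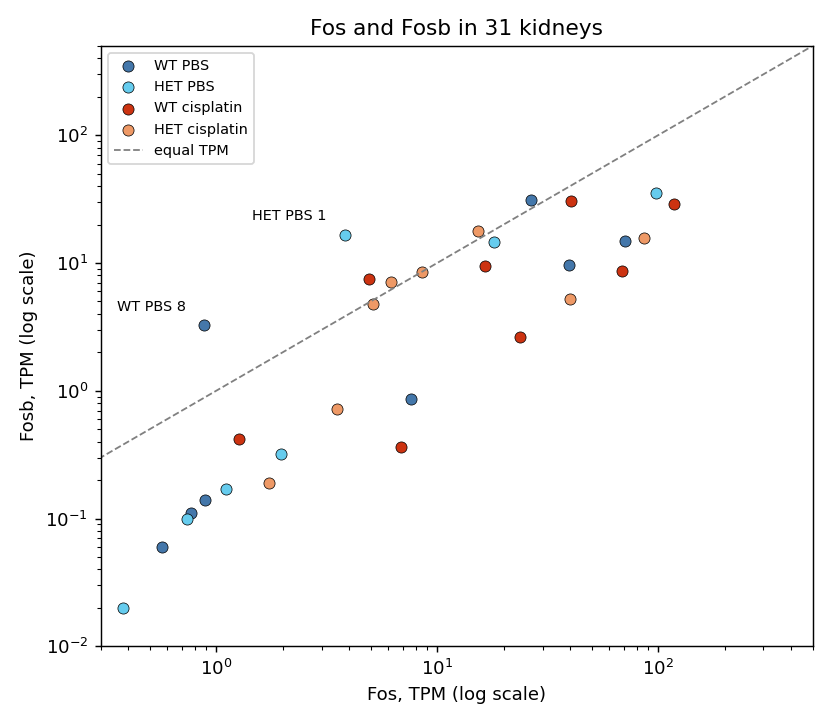
TPM of Fosb against TPM of Fos in 31 kidneys (both axes on a log scale), coloured by group, with the dashed line at equal TPM. HET PBS 1 and WT PBS 8 lie farthest above the line, at ratios of 4.37 and 3.70.

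Over all 31 libraries, with group means removed, the genes whose log2 CPM followed Fos most closely were Zfp36 (r 0.963), which encodes an RNA-decay factor, the phosphatase gene Dusp1 (0.950), the antiproliferative gene Btg2 (0.946), the nuclear receptor gene Nr4a1 (0.905) and Ppp1r15a (0.904), which acts in the integrated stress response. For Atf3 they were Nr4a2 (0.952), Nr4a1 (0.952), Apold1 (0.950), the kinase gene Sik1 (0.939) and the protease gene Adamts1 (0.931). For Myc they were Snhg16 (0.761), Cited2 (0.761), Id1 (0.743), an inhibitor of helix-loop-helix factors, the cytokine gene Lif (0.742) and Gadd45g (0.725), at lower r. These were ranked over 15519 genes with a mean CPM of at least 1, the 10 members left out, and r is a description.

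Other genes of the same pathways were counted by lists. The shares of all tested genes called higher were 33.6% (WT) and 31% (HET), and those called lower 29.6% and 28%. Of 14 tested other immediate early transcription factors, 5 rose and 0 fell in each genotype, and the share that rose is near that of all genes. Fosl1, a FOS-family gene, rose from 0.327 ± 0.640 to 14.8 ± 7.99 CPM in WT (n = 8 and 8), a log2 fold change of 5.49, and by 6.09 in HET. Ier5 rose by 1.94 and 1.92, Fosl2 by 1.67 and 1.21, and Klf10 by 1.04 and 0.83 in WT and HET. The list's median was 0.57 in WT and 0.41 in HET, beside 0.06 for all genes. Of 22 feedback and effector genes, such as phosphatases and RNA-decay factors that end the response, WT had 5 that rose, HET had 4, and 0 fell, with medians of 0.42 and 0.09. Plk2 rose by 2.51 and 2.77, Dusp5 by 1.80 and 1.32, Gadd45b by 1.21 and 1.17 and Zfp36l1 by 0.94 and 0.62.

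Of 22 upstream kinases and factors, 9 rose and 4 fell under cisplatin in WT, against 7 and 4 in HET (medians 0.11 and 0.09). Mrtfa, an SRF coactivator, rose by 0.85 and 0.75, its relative Mrtfb by 0.68 and 0.42, and the kinase gene Rps6ka1 by 0.69 and 0.70, while Map2k2 fell by 0.58 and 0.42. Of 12 AP-1 dimer partners, 5 rose and 1 fell under cisplatin in WT, against 3 and 3 in HET (medians 0.38 and 0.13). Fosl1 and Fosl2, given above, and Jund (0.66 and 0.71) were among those that rose, and Atf2 fell by 0.26 and 0.20. Of 11 AP-1 target genes, 7 rose and 2 fell under cisplatin in WT, against 7 and 1 in HET (medians 0.78 and 0.72). Spp1, the osteopontin gene, rose by 3.54 and 3.11, Timp1 by 4.26 and 3.47 and Cd44 by 2.79 and 2.88, whereas the collagenase gene Mmp13 fell by 4.36 and 3.52.

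Among 11 genes of the MYC network, 5 rose and 3 fell under cisplatin in WT, against 3 and 3 in HET (medians 0.11 and 0.07). Mxd4 rose by 0.58 and 0.40, and Mxi1 (0.69 and 0.65), Mxd1 (0.50 and 0.66) and Mlx (0.47 and 0.45) fell. Of 13 MYC target genes, 5 rose and 3 fell under cisplatin in WT, against 6 and 3 in HET (medians 0.03 and 0.10). Odc1, the first enzyme of polyamine synthesis, fell by 2.55 and 2.23, Ldha by 0.64 and 0.60 and Dnph1 by 0.69 and 0.37, while Cad, an enzyme of pyrimidine synthesis, rose by 1.11 and 1.47. Of 10 other KLF genes, 5 rose and 2 fell under cisplatin in WT, against 5 and 3 in HET (medians 0.40 and 0.17). Klf5 rose by 2.35 and 2.06, Klf7 by 0.72 and 0.54 and Klf3 by 0.60 and 0.42, and Klf12 fell by 1.65 and 1.62. Some genes are in more than 1 list. With library totals as the scale, where 61.4% and 62.2% of all tested genes rose, the numbers that rose in WT and HET were 20 and 20 of the 22 upstream genes, 10 and 7 of the 12 dimer partners, 10 and 10 of the 13 MYC targets, and 7 and 8 of the 11 MYC network genes. They were 7 and 6 of the 14 other early factors, 13 and 10 of the 22 feedback and effector genes, 8 and 7 of the 11 AP-1 targets and 7 and 5 of the 10 KLF genes. Of the named genes, Atf2 in both genotypes and Dnph1 in HET changed sign under it. No gene of these lists was called in the genotype contrasts or the interaction, where 20 of 345 entries of the lists (5.80%) had an unadjusted p under 0.05 by edgeR, near the shares of all tested genes between HET and WT, 5.02% under PBS and 5.53% under cisplatin.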

How the data were processed

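Kidney RNA of 31 mice was sequenced as bulk tissue. Magnetic beads were used to extract RNA, a minimum RNA integrity was required, and a KAPA mRNA HyperPrep library followed, per the labels' protocols. The tools named in the submitters' processing notes are fastp, STAR and featureCounts, with GRCm38 and mm10 as builds. The sources used here do not give versions, roles or the strand setting. The authors deposited expected counts per gene, not normalized, of which 12.5% are not whole numbers, beside TPM values and FPKM values scaled by gene length and library. The expected counts were rounded for testing, TPM served to compare levels between genes and for 1 alternative, and the deposited FPKM values were not used further.

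CPM are expected counts per 1e+06 with TMM scaling, and log2 CPM used a prior count of 2. A single edgeR 4.0.16 fit (R 4.3.3, filterByExpr by group, quasi-likelihood F test) of all 31 libraries with 4 group means gave 5 contrasts, adjusted by Benjamini-Hochberg over 19268 genes with a threshold of 0.05. Fold changes of edgeR (log2) used a prior count of 0.125. Their SE is the absolute fold change divided by the square root of the F statistic, and so is approximate. DESeq2 1.42.0, limma 3.58.1 (voom with quality weights, and log2(TPM + 1)), other scalings, filters, prior counts and libraries were the alternatives. Spreads and correlations were tested by two-sided permutation over libraries (numpy 2.4.6, with ranks from scipy 1.17.1), over all arrangements. For spreads, the deviations from each group's own median were permuted, so those p-values are approximate. Each library carries its own animal number and was taken as 1 animal. Replicate numbers follow accession order and pair nothing. The edgeR step was run on simulated data with 1 equal dispersion for all genes and groups and few changed genes. That checks the code, and not the behaviour of the test on genes as uneven between libraries as these. Gene positions are from GENCODE M21 (GRCm38).

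The genes, lists, marker sets, groups of animals and tests were chosen with earlier results of these data known. Fold changes and spreads were adjusted over all tested genes. Correlations were adjusted over the 36 relations computed among the members, and spreads under the alternatives over their 20 comparisons, which is not independent evidence. Named genes are the 10 members, up to 4 genes of each list with the smallest p in WT, the 5 closest followers of Fos, of Atf3 and of Myc, and Nbl1.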

Additional observations from a re-analysis of the deposited data

Results flagged for a closer look

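In 7 of the 40 sets of values formed by 10 genes and 4 groups, 1 library lay farther from its nearest neighbour than Dixon's 95% limit allows on the CPM scale. For normally distributed values chance flags about 1 set in 20. CPM of these genes were skewed, with a mean of 52.6 and a median of 5.69 for Fos in HET PBS. That rate therefore does not hold here, and the flags are a description. The limit was not applied to log2 CPM. The genes also move together, so these sets are not independent. HET PBS 2 accounts for 4 of them, as the highest of its group in Fos (289 CPM), Jun (489 CPM), Junb (188 CPM) and Ier2 (122 CPM). WT PBS 5 was highest in Atf3 (108 CPM) and Klf6 (239 CPM). HET cisplatin 7 was highest in Fos (201 CPM), against a group median of 15.5 CPM. Leaving out WT PBS 5 raised the log2 fold change of Atf3 in WT to 2.42 (edgeR, adjusted p = 0.0214), which passed the threshold, from 1.32 with all libraries. Leaving out HET PBS 2 gave Fos a fold change of 1.77 in HET, the highest of the fits that left out 1 library, without passing (adjusted p = 0.190).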

How the results depend on the processing

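The number of the 10 genes called higher under cisplatin in WT was 3 by edgeR, 5 by limma voom and 5 by limma on log2(TPM + 1), and 2 to 4 when 1 library was left out. In HET it was 2 by edgeR, 4 by limma on log2(TPM + 1), 1 without the 5 libraries that go against their Nbl1 label, 8 within the animals of the 600 series, and 1 to 2 when 1 library was left out. Within those animals Fos (3.94), Fosb (5.27) and Ier2 (1.57) changed sign in HET and passed the threshold. Without WT cisplatin 6 and HET cisplatin 6, a choice made after seeing the data, the counts were 3 and 2. Myc in WT was lost under 8 alternatives (adjusted p = 0.0528 to 0.616): DESeq2, RLE scaling, no filter, the compared groups alone, the 600 series alone, the number series or the library number as a covariate, and without those 5 libraries. Myc in HET passed with library totals (adjusted p = 0.0128), the compared groups alone (0.0371), the 600 series alone (0.0208) and log2(TPM + 1) (0.00853). Klf6 passed in both genotypes under every alternative, and Klf4 in WT did too. The counts for genotype, interaction and spread were 0 under every alternative run. The correlations with Fos that passed numbered 30 of 36 by edgeR's scaling and 25 with log2(TPM + 1). These counts include the PBS groups, whose libraries split into sets. By edgeR's scaling 7 of 9 relations passed for r in WT PBS and 8 of 9 in HET PBS, and these are descriptions only. Over all comparisons of a gene's fold change with that of the main fit, called or not, 135 of 2190 changed sign. These include the 3 sign changes of Fos, Fosb and Ier2 given above. The causes were not tested. The interaction has no fit of the compared groups alone, as it needs all 4. No paired analysis was possible because the replicate numbers follow accession order and the labels give the groups no shared numbers. Low PBS libraries rest on few reads, down to 3 for Fosb. The tests of fold changes weigh the difference between groups against the spread between animals.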

Other observations

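Of the 13 MYC target genes, 13 had a positive log2 difference of HET against WT under cisplatin, with a median of 0.11 beside 0.00 for all genes. None passed edgeR's test, and 5 had an unadjusted p under 0.05, beside 5.53% of all tested genes. This list and contrast were picked after the values of all lists were seen. Under PBS 7 of the 13 had a positive difference, and how far the 13 genes vary together was not tested. Myc itself had a negative difference in the same contrast (-0.41 ± 0.37, adjusted p = 0.922).

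Dusp1 and Nr4a1, 2 of the genes that followed Fos, were also uneven among PBS kidneys, Dusp1 less so than Fos. Dusp1 ran from 31.3 to 360 CPM in WT PBS and from 40.1 to 430 CPM in HET PBS, and under cisplatin from 32.3 to 173 CPM in WT and 32.0 to 164 CPM in HET. Nr4a1 ran from 2.30 to 327 CPM in WT PBS and from 3.23 to 298 CPM in HET PBS.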
